A study of Macaca mulatta with 6 samples.

Results

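The 9 genes described here were listed together as p53 targets in the response to DNA damage: GADD45A, GADD45B, XPC, RRM2B, TP53I3, TP53INP1, SESN1, MDM2 and ZMAT3. Control of each by p53 in these cells was not tested. They were chosen by symbol, and all 9 were found in the deposited table, out of 24932 genes. All 9 also reached a mean of 1 FPKM over the libraries, the level from which a gene was tested, as did 11818 genes of the whole table. TP53INP1 did so only through 1 of the treatments, as described below. RNA came from RF/6A cells, a rhesus macaque line labelled as choroidal endothelium, grown to confluence on porous inserts and exposed for 4 hours to 50% human serum. The 3 tested libraries were from cells in normal serum, whose complement is active and can form the membrane attack complex, a pore in the cell membrane. The 3 control libraries were from cells in serum whose complement had been destroyed by heat. The labels do not say whether replicates were separate cultures. Each p-value therefore rests on variation among libraries that could be technical. Serum was present in both groups and no library had complement removed in another way, so complement and any other heat-sensitive serum factor cannot be told apart.

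The p53 protein is a transcription factor that is held at a low level in unstressed cells, chiefly by MDM2, the ubiquitin ligase that marks it for degradation. Damaged DNA and other stresses stabilise it, and it then switches on genes for cell cycle arrest, DNA repair, antioxidant defence and cell death. MDM2 is itself a target, which closes a feedback loop. GADD45A and GADD45B are small stress proteins that bind kinases and cell cycle regulators, and GADD45B also responds to cytokines through NF-kappaB. XPC recognises distorted DNA at the start of nucleotide excision repair, and RRM2B is the p53-controlled small subunit of ribonucleotide reductase, which makes deoxynucleotides for repair. TP53I3 is an oxidoreductase, TP53INP1 a stress protein linked to autophagy and cell death, SESN1 a sestrin that restrains mTORC1 signalling, and ZMAT3 an RNA-binding protein.

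The 9 genes did not move together in normal serum. The pair of GADD45 genes and TP53I3 rose, XPC, RRM2B and TP53INP1 fell, and MDM2, SESN1 and ZMAT3 did not pass the test (limma, adjusted p under 0.05 over all tested genes). Thus 6 of 9 were called, 3 in each direction. Of all tested genes 54.0% were called, 27.8% higher and 26.1% lower, so the members' share is near that background. In 6 members, 3 higher and 3 lower, the libraries of the treatments did not overlap, against 62.6% of all tested genes, 32.1% higher and 30.5% lower. The median log2 change of the members was -0.10, beside 0.01 over all tested genes, on the log2(FPKM + 1) scale that is used for every log2 change below. The values by library are shown in the plot of FPKM for the 9 genes, and the changes with their intervals in the plot of log2 changes.

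**Figure D1:**
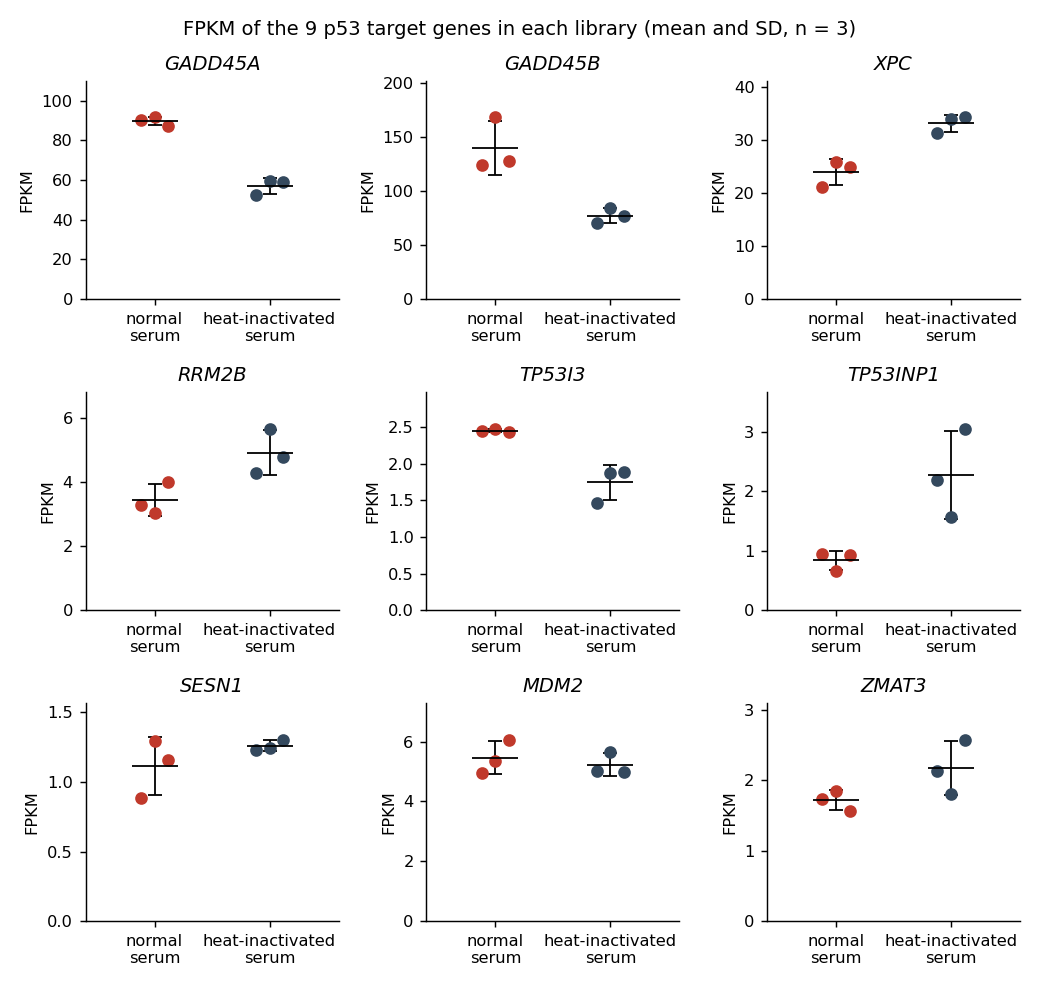
FPKM (vertical axis, from 0, scaled separately for each gene) of the 9 genes in each library, with normal serum on the left and heat-inactivated serum on the right. Points are libraries, the long bar is the mean and the whiskers are 1 SD (n = 3). The treatments are separate for GADD45A, GADD45B, XPC, RRM2B, TP53I3 and TP53INP1 and overlap for SESN1, MDM2 and ZMAT3.

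Depth was even, with between 14054922 and 17862941 fragments implied per library by the value of 1 fragment, and 11589 to 11837 genes per library at 1 FPKM or more. In replicate 1 of both treatments only 45.5% and 49.2% of low values were whole numbers of fragments, against 100% in replicates 2 and 3, so the depth of the replicate 1 libraries is approximate. Within replicates 2 and 3 alone, 5 of the 9 members were called, TP53I3 being the one lost. Of all calls 51.6% were higher, but 34.7% after every library had been given an equal total FPKM (total-FPKM scaling below), which shifted the median log2 change of all genes to -0.12. The same scaling with the very short MIR1282 transcript left out of the total (scaling without MIR1282) left 28.3% of calls higher and a median of -0.18. Endothelial markers were mixed in level. Of 14 endothelial markers found, 6 had a mean of at least 1 FPKM, and 5 of these were called higher in normal serum. ENG was the highest, with means of 74.2 FPKM in normal serum and 61.2 FPKM in heat-inactivated serum, and PECAM1 had 7.95 and 3.35 FPKM. Another 5 averaged under 0.1 FPKM. Among these, CDH5, VE-cadherin, averaged 0.0110 ± 0.00974 FPKM in normal serum and was listed at 0 in heat-inactivated serum (n = 3 each). Endothelial markers below the testing level went both ways. KDR was lower in normal serum without overlap (0.105 FPKM, against 0.370 FPKM in heat-inactivated serum). VWF was higher without overlap (1.05 FPKM, against 0.172 FPKM). The summed endothelial markers stood at 119.9 to 128.8 FPKM in normal serum and 94.1 to 95.1 FPKM in heat-inactivated serum. Of the 11 mural and fibroblast markers, 10 reached 1 FPKM, 8 fell and 2 rose. All 11 summed to 3393 to 3562 FPKM in normal serum and 6882 to 7416 FPKM in heat-inactivated serum. COL1A1 was the largest part, with means of 2026 FPKM in normal serum and 3870 FPKM in heat-inactivated serum. Retinal pigment epithelium markers, 2 of 7 at 1 FPKM or more, summed to 139.7 to 164 FPKM in normal serum and 124 to 140.002 FPKM in heat-inactivated serum. Leukocyte markers, 3 of 6 at that level, summed to 13.5 to 16.2 FPKM in normal serum and 14.4 to 19.0 FPKM in heat-inactivated serum. The part of these markers in the results below was not tested. In such bulk RNA, fewer cells that express a gene and less of its RNA per cell cannot be told apart.

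GADD45A and GADD45B were the most abundant members and both rose. GADD45B, on chromosome 19 in the table, had 124, 168.6 and 127.9 FPKM in normal serum, against 70.7, 84.5 and 77.2 FPKM in heat-inactivated serum. The lowest normal serum library thus lay well above the highest control library. The mean level was 1.81-fold higher, with a log2 change of 0.84 ± 0.13 (SE, adjusted p = 0.00123), the largest rise among the 9. GADD45A, on chromosome 1, had 90.4, 91.6 and 87.3 FPKM in normal serum, against 52.5, 59.5 and 59.2 FPKM in heat-inactivated serum. It was 1.57-fold higher, with a log2 change of 0.65 ± 0.07 (SE, adjusted p = 2.26e-04). The coefficient of variation over the 3 normal serum libraries was 2.46% for GADD45A and 17.6% for GADD45B, whose replicate 2 was high. Both calls held under all 20 alternative settings run.

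The GADD45A value sums a pair of annotated transcripts, and both were higher in every normal serum library. The longer, of 1497 bases, held 80.8% of the level in normal serum and 86.9% in heat-inactivated serum. It averaged 72.5 ± 3.09 and 49.6 ± 2.82 FPKM in these treatments (SD, n = 3 each). The shorter, of 1221 bases, had 17.7, 16.1 and 18.0 FPKM in normal serum, against 3.28, 6.92 and 12.3 FPKM in heat-inactivated serum. Its control libraries were far apart although the sum over both transcripts was not. In the authors' deposited table the longer transcript had a log2 change of 0.55 (q = 2.23e-04) and the shorter one of 1.21 (q = 0.0818). GADD45B has 1 annotated transcript, with a log2 change of 0.85 in the authors' deposited table (q = 2.23e-04).

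Of 7 tested relatives and partners of the members, 2 were higher and 1 lower, with a median log2 change of 0.07 (-0.06 under total-FPKM scaling). Within the GADD45 family, the third relative GADD45G, named after its values were seen, stayed low. It had 0.383, 0.906 and 0.511 FPKM in normal serum and 0.149, 0.135 and 0.311 FPKM in heat-inactivated serum. These libraries did not overlap, with normal serum higher, but the mean was below the testing level. MAP3K4, the kinase that GADD45 proteins bind and activate in the p38 and JNK pathways, had 9.74, 9.93 and 10.7 FPKM in normal serum, against 3.69, 4.27 and 4.43 FPKM in heat-inactivated serum. It rose 2.45-fold (log2 change 1.12, adjusted p = 6.31e-05). The ratio of GADD45B to GADD45A within each library was 1.37, 1.84 and 1.47 in normal serum and 1.35, 1.42 and 1.31 in heat-inactivated serum. These ratios overlapped, and an exact permutation test gave a two-sided p of 0.2 (0.225 adjusted over the 9 ratios computed). With 3 libraries per treatment such a test cannot go below 0.1. Ratios within a library do not depend on how the libraries are scaled.

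**Figure D2:**
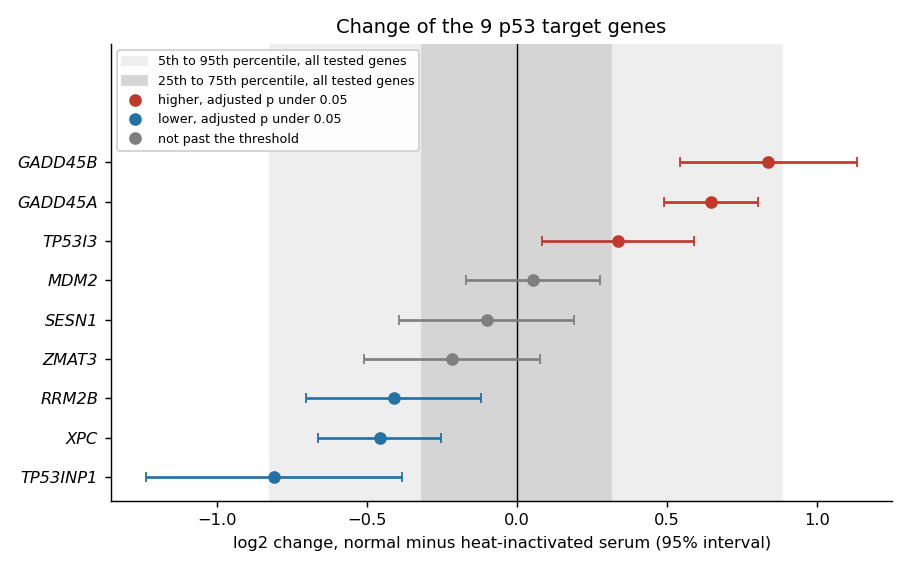
Log2 change (horizontal axis, normal minus heat-inactivated serum, on the log2(FPKM + 1) scale) of the 9 genes, with 95% intervals from limma. Grey bands give the 25th to 75th (-0.32 to 0.31) and 5th to 95th (-0.82 to 0.88) percentiles over the 11818 tested genes. All 9 estimates lie inside the wider band, with GADD45B nearest its upper edge and TP53INP1 nearest its lower edge.

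XPC and RRM2B, grouped here for their part in DNA repair, both fell. The roles of the members were assigned by hand. XPC had 21.1, 25.8 and 24.95 FPKM in normal serum, against 31.3, 33.9 and 34.3 FPKM in heat-inactivated serum. The treatments did not overlap, and the level in normal serum was 0.722 of the control mean (log2 change -0.46 ± 0.09 SE, adjusted p = 0.00366). Between 1023 and 1969 fragments per library stood behind these values, and the call held under all 20 alternatives. The table has 1 XPC transcript, of 3637 bases. It places XPC on chromosome 11, unlike the RefSeq macaque gene table used here, in which the other 8 members have the same chromosome as in the deposited table.

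Around XPC, the nucleotide excision repair list had 4 of 18 tested genes higher and 8 lower, with a median log2 change of -0.22. Total-FPKM scaling gave 3 higher and 10 lower, and replicates 2 and 3 alone gave 4 and 6. The 3 genes with the smallest adjusted p were all higher. PCNA, the sliding clamp of DNA synthesis, averaged 219 ± 19.6 FPKM in normal serum and 155 ± 9.61 FPKM in heat-inactivated serum (SD, n = 3 each). ERCC3, a helicase that opens DNA at the lesion, rose 1.35-fold, and ERCC1, part of the nuclease that cuts the damaged strand, rose 1.28-fold. ERCC1 lost its call under total-FPKM scaling (adjusted p = 0.117) and under quantile normalization (adjusted p = 0.0559).

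Among genes for proteins that work directly with XPC, RAD23B and DDB2 were called lower and CETN2 was not called. Whether their RNA changes differ from one another was not tested. The following 3 genes were named after their values were seen. RAD23B, which stabilises XPC, averaged 96.1 ± 4.85 FPKM in normal serum and 116 ± 7.74 FPKM in heat-inactivated serum (SD, n = 3 each, log2 change -0.27, adjusted p = 0.0151). RAD23B lost its call when replicate 2 or 3 in heat-inactivated serum was left out (adjusted p = 0.0558 and 0.0540), and when its highest transcript was used alone (log2 change -0.08, adjusted p = 0.327). CETN2, the centrin of the same complex, stood at 65.0 ± 5.54 FPKM in normal serum and 59.5 ± 6.96 FPKM in heat-inactivated serum, a log2 change whose 95% interval ran from -0.11 to 0.37. DDB2, a damage sensor that hands ultraviolet lesions to XPC and is itself a p53 target in human cells, averaged 6.503 ± 0.695 FPKM in normal serum and 8.19 ± 0.138 FPKM in heat-inactivated serum (log2 change -0.30, adjusted p = 0.0236). DDB2 lost its call with only replicates 2 and 3 (adjusted p = 0.0891). It did so too when normal serum replicate 1 (adjusted p = 0.0554) or heat-inactivated serum replicate 1, 2 or 3 (adjusted p = 0.0575, 0.0673 and 0.0546) was left out.

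The ratio of XPC to CETN2 within each library was 0.350, 0.363 and 0.392 in normal serum and 0.605, 0.551 and 0.525 in heat-inactivated serum. The ratio of XPC to RAD23B was 0.233, 0.263 and 0.251 in normal serum and 0.292, 0.279 and 0.289 in heat-inactivated serum. Neither pair of ranges overlapped (two-sided exact permutation p = 0.1 for each, the smallest possible, 0.15 adjusted over the 9 ratios). For XPC to CETN2, the ranges of the single genes already fixed that, so this ratio adds nothing to the fall of XPC.

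RRM2B fell too, with less data behind it. It had 3.31, 3.05 and 4.02 FPKM in normal serum, against 4.30, 5.68 and 4.797 FPKM in heat-inactivated serum, from 64.0 to 115 fragments per library. The treatments were separate by a small margin, since the highest normal serum library stood at 4.02 FPKM and the lowest control library at 4.30 FPKM. The level in normal serum was 0.701 of the control mean (log2 change -0.41 ± 0.12 SE, adjusted p = 0.0256). The call ended when normal serum replicate 1 (adjusted p = 0.0636) or 2 (adjusted p = 0.0808), or heat-inactivated serum replicate 2 (adjusted p = 0.0835) or 3 (adjusted p = 0.0584), was left out, and with quantile normalization (adjusted p = 0.0736). Of its 5 annotated transcripts the one of 1604 bases carried 79.5% of the level in normal serum and 87.4% in heat-inactivated serum. In normal serum replicate 3, however, a transcript of 900 bases held 2.03 of the 4.02 FPKM. The 1604-base transcript alone had 3.31, 2.94 and 1.99 FPKM in normal serum, against 4.30, 4.65 and 3.97 FPKM in heat-inactivated serum. Its log2 change in the authors' deposited table was -0.65 (q = 0.0237).

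The other subunits of ribonucleotide reductase moved the opposite way. RRM2, the small subunit used in dividing cells, had 119, 126 and 115 FPKM in normal serum, against 67.9, 81.4 and 77.8 FPKM in heat-inactivated serum. It rose 1.58-fold (log2 change 0.66, adjusted p = 4.55e-04). RRM1, the large subunit, averaged 45.8 ± 4.58 FPKM in normal serum and 36.8 ± 2.71 FPKM in heat-inactivated serum (SD, n = 3 each, log2 change 0.30, adjusted p = 0.0237). RRM1 lost its call under total-FPKM scaling (adjusted p = 0.209), under quantile normalization (adjusted p = 0.147) and with only replicates 2 and 3 (adjusted p = 0.0779). It did so too when replicate 2 in normal serum (adjusted p = 0.0711) or replicate 1 in heat-inactivated serum (adjusted p = 0.0674) was left out. Within libraries, RRM2B stood at 0.0278, 0.0242 and 0.0349 of the RRM2 level in normal serum and at 0.0634, 0.0698 and 0.0617 of it in heat-inactivated serum. These ratios did not overlap (two-sided exact permutation p = 0.1, the smallest possible, 0.15 adjusted over the 9 ratios). RRM2B was lower and RRM2 higher in every normal serum library than in any control library. The separation of the ratios was thus fixed in advance and adds nothing to the single-gene results.

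Among 9 genes of deoxynucleotide supply, 5 were higher and 4 were not called, with a median log2 change of 0.28. Scaling without MIR1282 gave 2 higher and 2 lower (median 0.06), and 2 were higher and 7 not called under each of total-FPKM scaling, quantile normalization and replicates 2 and 3 alone. TK1, a thymidine kinase of the S phase, averaged 57.0 ± 6.95 FPKM in normal serum and 35.1 ± 4.46 FPKM in heat-inactivated serum (SD, n = 3 each, log2 change 0.68, adjusted p = 0.00248).

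**Figure D3:**
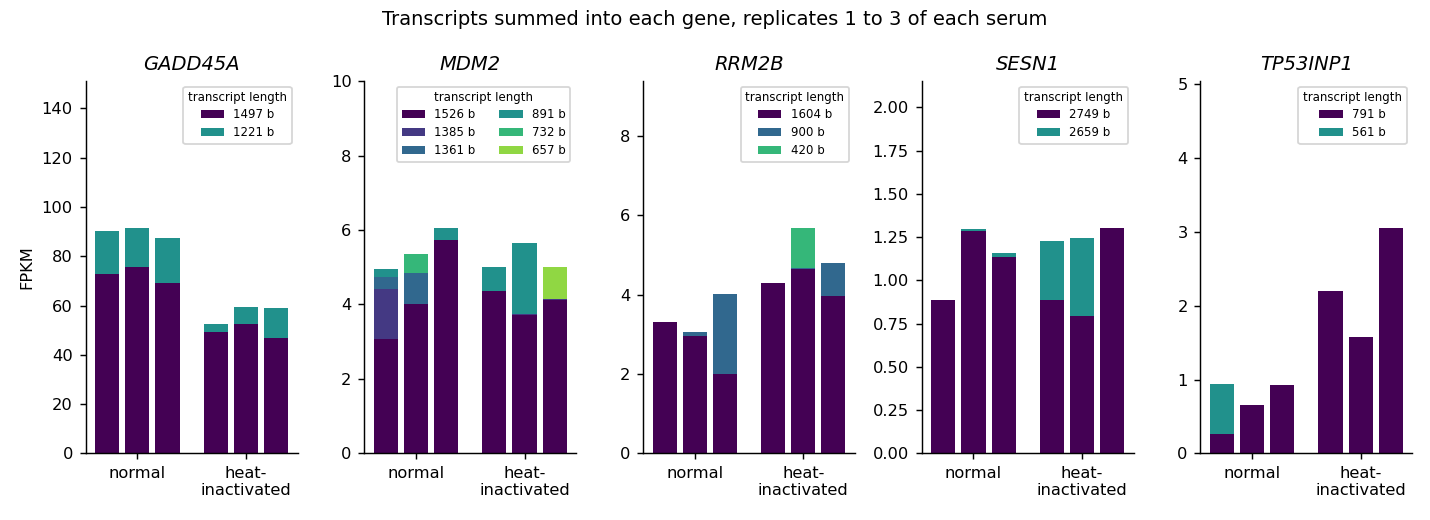
FPKM (vertical axis) of the annotated transcripts summed into 5 of the genes, stacked and coloured by transcript length in bases, for replicates 1 to 3 in normal serum (left) and in heat-inactivated serum (right). Transcripts at 0 in all libraries are not drawn. The 1497-base GADD45A transcript carries most of its gene in every library, and the 1604-base RRM2B transcript does so except in normal serum replicate 3. The 561-base TP53INP1 transcript is visible only in normal serum replicate 1.

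Of the members linked to oxidative stress and autophagy, 1 rose, 1 fell and 1 did not pass the test. TP53INP1 showed the largest fall of the 9. It had 0.939, 0.659 and 0.931 FPKM in normal serum, against 2.19, 1.57 and 3.06 FPKM in heat-inactivated serum. All normal serum libraries lay below 1 FPKM and all control libraries above 1.5, and the mean was 0.371 of the control mean (log2 change -0.81 ± 0.18 SE, adjusted p = 0.00754). Few reads carried these values, with about 5.77, 5.99 and 10.0 fragments in normal serum and 20.8, 15.9 and 27.0 fragments in heat-inactivated serum. TP53INP1 also reached the testing level only through heat-inactivated serum, with means of 0.843 FPKM in normal serum and 2.28 FPKM in heat-inactivated serum. The call nevertheless held in the 19 alternatives that kept the gene, with log2 changes between -1.39 and -0.64. Without a filter on low values the adjusted p was 0.0124. In normal serum replicate 1 a transcript of 561 bases held 0.671 of the 0.939 FPKM, and elsewhere it was at or near 0. The other transcript, of 791 bases, had 0.268, 0.659 and 0.928 FPKM in normal serum and the same 2.19, 1.57 and 3.06 FPKM in heat-inactivated serum, and the authors' deposited table gives its log2 change as -1.88 (q = 0.0315).

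Its relative TP53INP2, an autophagy factor, was far more abundant and rose. TP53INP2 had 31.0, 25.3 and 27.7 FPKM in normal serum, against 20.6, 16.7 and 16.4 FPKM in heat-inactivated serum (log2 change 0.62, adjusted p = 0.00263). TP53INP1 thus stood at 0.0303, 0.0261 and 0.0337 of the TP53INP2 level in normal serum and at 0.106, 0.0944 and 0.186 of it in heat-inactivated serum. The ratios were separate (two-sided exact permutation p = 0.1, the smallest possible, 0.15 adjusted over the 9 ratios). That too was fixed in advance, since TP53INP1 alone was separate and lower and TP53INP2 alone separate and higher.

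TP53I3, on chromosome 13, had 2.44, 2.48 and 2.43 FPKM in normal serum, against 1.46, 1.88 and 1.89 FPKM in heat-inactivated serum. The normal serum libraries were almost equal, and replicate 1 of the control lay below the other controls. The mean was 1.41-fold higher (log2 change 0.33 ± 0.11 SE, adjusted p = 0.0330), on 23.2 to 44.0 fragments per library. This call was the least stable of the 6. It ended whichever of the 6 libraries was left out, with adjusted p between 0.0507 and 0.0946 and log2 changes between 0.26 and 0.37, and with total-FPKM scaling (log2 change 0.24, adjusted p = 0.153). In the authors' deposited table its main transcript, of 1201 bases, had a log2 change of 0.45 and did not reach 0.05 (q = 0.0829).

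SESN1 was among the lowest genes tested. It had 0.888, 1.29 and 1.16 FPKM in normal serum and 1.23, 1.248 and 1.30 FPKM in heat-inactivated serum, on 31.9 to 53.05 fragments per library. The libraries overlapped, and the 95% interval of the log2 change ran from -0.39 to 0.19 (adjusted p = 0.52). Of its 2 transcripts, the 2659-base one was at 0.0104 ± 0.0108 FPKM in normal serum and 0.265 ± 0.236 FPKM in heat-inactivated serum (SD, n = 3 each).

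The other sestrins were more abundant. SESN2, named after its values were seen, had 6.36, 6.64 and 6.48 FPKM in normal serum and 6.40, 6.03 and 6.02 FPKM in heat-inactivated serum (95% interval of the log2 change -0.10 to 0.23). SESN3, a target of FOXO factors, had 6.11, 7.40 and 8.59 FPKM in normal serum, against 12.3, 11.7 and 11.3 FPKM in heat-inactivated serum. It fell by 0.62 on the log2 scale (adjusted p = 0.00290). Within libraries, SESN3 stood at 0.961, 1.12 and 1.33 of the SESN2 level in normal serum and at 1.92, 1.95 and 1.88 of it in heat-inactivated serum (two-sided exact permutation p = 0.1, the smallest possible, 0.15 adjusted over the 9 ratios). These SESN3 ratios did not overlap. The ranges of SESN3 and SESN2 by themselves already fixed that, so it adds nothing to the single-gene results. The ratio of SESN1 to SESN2 overlapped between the treatments (exact permutation p = 0.2, 0.225 adjusted over the 9 ratios).

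**Figure D4:**
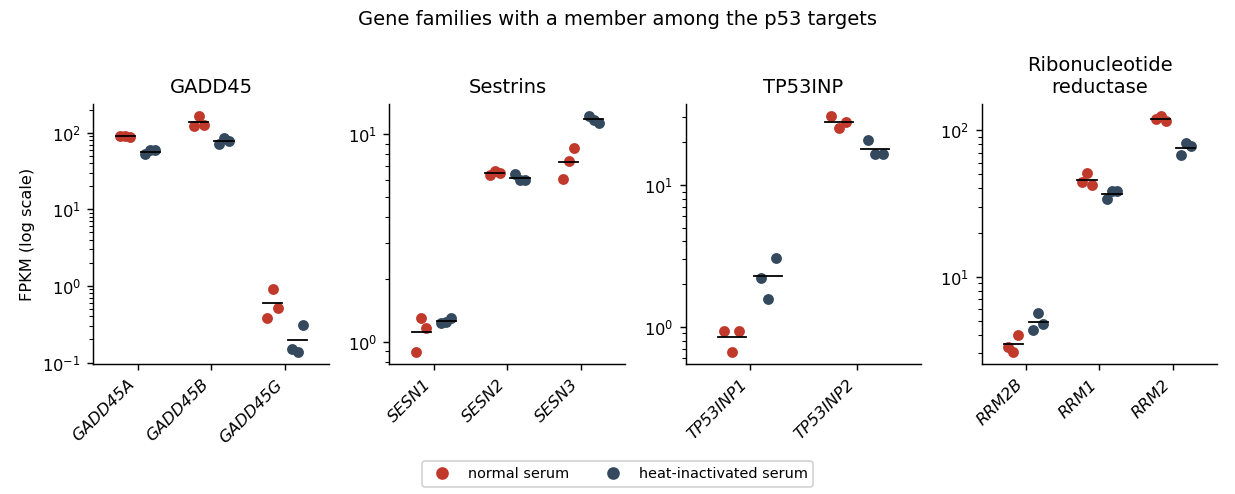
FPKM (vertical axis, log scale, a separate range for each family) of the GADD45, sestrin, TP53INP and ribonucleotide reductase genes in each library, with normal serum left of heat-inactivated serum for each gene. Points are libraries and bars are means. TP53INP1 and RRM2B lie lower in normal serum, while TP53INP2, RRM1 and RRM2 lie higher.

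The feedback gene MDM2 did not pass the test. It had 4.96, 5.36 and 6.06 FPKM in normal serum and 5.00, 5.66 and 4.99 FPKM in heat-inactivated serum. The libraries overlapped, and the 95% interval of the log2 change ran from -0.17 to 0.28 (adjusted p = 0.661). Of 10 annotated MDM2 transcripts, 4 were listed at 0 in all libraries and 1, of 1526 bases, was above 0 in all. That transcript carried 78.2% of the level in normal serum and 77.9% in heat-inactivated serum. MDM4, the partner of MDM2 in holding p53 inactive and named after its values were seen, averaged 10.0 ± 1.85 FPKM in normal serum and 9.81 ± 2.44 FPKM in heat-inactivated serum (SD, n = 3 each, adjusted p = 0.862). The ratio of MDM2 to MDM4 averaged 0.549 ± 0.0493 in normal serum and 0.549 ± 0.105 in heat-inactivated serum (SD, n = 3 each, two-sided exact permutation p = 0.9 before and after adjustment over the 9 ratios).

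ZMAT3, with 1 annotated transcript of 1009 bases, had 1.73, 1.86 and 1.57 FPKM in normal serum and 2.13, 1.81 and 2.58 FPKM in heat-inactivated serum. The libraries overlapped by 1 control value, that of replicate 2. The 95% interval of the log2 change ran from -0.51 to 0.08 (adjusted p = 0.18), on 19.97 to 31.0 fragments per library. The gene was called in 1 of 19 alternatives, scaling without MIR1282 (log2 change -0.36, adjusted p = 0.0405).

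FPKM is scaled for transcript length, so the levels of the 9 genes can be set side by side. In normal serum the order of the mean levels ran GADD45B, GADD45A, XPC, MDM2, RRM2B, TP53I3, ZMAT3, SESN1 and TP53INP1. Neighbours in this order did not overlap in their libraries except SESN1 and TP53INP1. In heat-inactivated serum the order was GADD45B, GADD45A, XPC, MDM2, RRM2B, TP53INP1, ZMAT3, TP53I3 and SESN1. There MDM2 overlapped with RRM2B, TP53INP1 with ZMAT3, and ZMAT3 with TP53I3. GADD45B and GADD45A had mean levels above 91.6% and 87.7% of all tested genes, XPC above 69.8%, and the other 6 members lay between 1.76% and 26.1%.

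Genes with profiles most like the largest rise and the largest fall were looked for by distance between centred log2(FPKM + 1) profiles over the 6 libraries. Nearest to GADD45B were CCDC9 (distance 0.169), ID4 (0.169), a DNA-binding inhibitor, and a gene the table lists as MMU.1320 (0.182). ID4 had 2.48, 3.55 and 2.26 FPKM in normal serum, against 0.851, 1.39 and 0.918 FPKM in heat-inactivated serum. Like GADD45B, it was highest in normal serum replicate 2, a likeness that the choice by distance itself favours. Nearest to TP53INP1 were ZNF449 (0.191), a zinc-finger gene, SLC25A43 (0.211), a mitochondrial carrier gene, and SIAE (0.267), a sialic acid esterase. ZNF449 had 0.741, 0.468 and 0.755 FPKM in normal serum, against 1.91, 1.56 and 3.13 FPKM in heat-inactivated serum. Like TP53INP1, it reached the testing level only through heat-inactivated serum.

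Other genes of the pathway were read from 8 lists by function. Of these, 3 hold genes listed here as p53 targets, and the others hold regulators, damage sensors, repair, deoxynucleotide supply and relatives of the members. Control of the listed genes by p53 in these cells was not tested, and other pathways may also control them. The 3 lists do not hold every p53 target, since CCNG1 (regulators) and DDB2 (repair), both lower, are also targets. Over all 8 lists together 58.9% of 112 tested genes were called, near the 54.0% of all tested genes. Of these genes 45 were higher and 21 lower, with a median log2 change of 0.15. That balance depended on the scaling, with 30 higher and 25 lower under total-FPKM scaling and 31 higher and 38 lower when MIR1282 was also left out of the total. Of 10 arrest targets, 6 were higher and 1 lower, with a median log2 change of 0.72. SFN, 1 of the 6, reached the testing level only through normal serum (mean 1.90 FPKM, against 0.129 FPKM in heat-inactivated serum). Total-FPKM scaling left 9 tested, with 5 higher, 1 lower and a median of 0.56. Scaling without MIR1282 gave the same counts with a median of 0.50, and quantile normalization gave 6 and 1 of 10 with 0.78. E2F7, a repressor of cell cycle genes, had 17.7, 16.0 and 18.3 FPKM in normal serum, against 3.83, 4.61 and 4.49 FPKM in heat-inactivated serum (log2 change 1.79, adjusted p = 8.88e-06). CDKN1A, the p21 inhibitor of cyclin-dependent kinases and the best known p53 target, had 86.6, 81.2 and 74.5 FPKM in normal serum, against 31.5, 30.8 and 29.2 FPKM in heat-inactivated serum. CCNG2, an unconventional cyclin, went the other way, with 19.8, 19.3 and 20.3 FPKM in normal serum, against 48.4, 36.5 and 39.4 FPKM in heat-inactivated serum (log2 change -1.02).

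Of 14 apoptosis targets, 7 were higher and 2 lower, with a median log2 change of 0.26. Total-FPKM scaling gave 5 higher and 3 lower with a median of 0.12, quantile normalization 5 and 3 with 0.11, and scaling without MIR1282 5 and 4 with 0.05. PMAIP1, the BH3-only protein NOXA, rose 3.74-fold, to 27.2, 30.3 and 23.4 FPKM in normal serum, against 7.06, 7.35 and 7.27 FPKM in heat-inactivated serum. BCL2L11, the BH3-only protein BIM, rose 1.79-fold in the sum over transcripts, but not with only its highest transcript (log2 change -0.09, adjusted p = 0.798). FAS, a death receptor, fell to 6.71 ± 0.422 FPKM in normal serum, against 10.4 ± 0.0991 FPKM in heat-inactivated serum (SD, n = 3 each, log2 change -0.57).

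Of 17 metabolic and other targets, 9 were higher and 4 lower, with a median log2 change of 0.47. The median was 0.25 under quantile normalization (9 higher, 3 lower) and 0.27 under scaling without MIR1282 (9 higher, 5 lower). Of these, THBS1 and EPHA2 are described here, both of which other pathways also induce. EPHA2, an ephrin receptor, averaged 57.8 ± 0.906 FPKM in normal serum and 21.0 ± 2.03 FPKM in heat-inactivated serum (SD, n = 3 each, 2.75-fold). THBS1, the secreted matrix protein thrombospondin 1, averaged 792 ± 18.5 FPKM in normal serum and 227 ± 14.3 FPKM in heat-inactivated serum (SD, n = 3 each, log2 change 1.80).

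Of 17 regulators of p53, 6 were higher and 1 lower, with a median log2 change of 0.16. With total-FPKM scaling 2 were higher and 1 lower (median 0.07), and without MIR1282 2 were higher and 5 lower (median 0.01). CCNG1, a cyclin that recruits a phosphatase to MDM2 and is itself a p53 target, had 21.3, 29.9 and 28.7 FPKM in normal serum, against 49.5, 52.9 and 54.1 FPKM in heat-inactivated serum (log2 change -0.96, adjusted p = 5.99e-04). TP53BP2, which steers p53 towards cell death genes, rose 1.58-fold, and TRIM28, a corepressor that works with MDM2, rose 1.39-fold.

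Of 20 damage sensors and kinases, 6 were higher and 4 lower, with a median log2 change of 0.02. Total-FPKM scaling gave 3 higher and 5 lower, with a median of -0.10, and without MIR1282 3 and 8, with a median of -0.16. H2AFX, the histone variant phosphorylated at DNA breaks, had 262, 254 and 230.2 FPKM in normal serum, against 144, 161 and 145 FPKM in heat-inactivated serum (log2 change 0.73, adjusted p = 2.09e-04). HUS1, part of the clamp that signals to ATR, rose 2.33-fold, and RNF8, a ubiquitin ligase at breaks, rose 1.83-fold. ATM, the kinase that activates p53 after breaks and named after its values were seen, had 2.31, 1.91 and 2.81 FPKM in normal serum, against 4.47, 3.64 and 3.99 FPKM in heat-inactivated serum (log2 change -0.60, adjusted p = 0.00590).

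**Figure D5:**
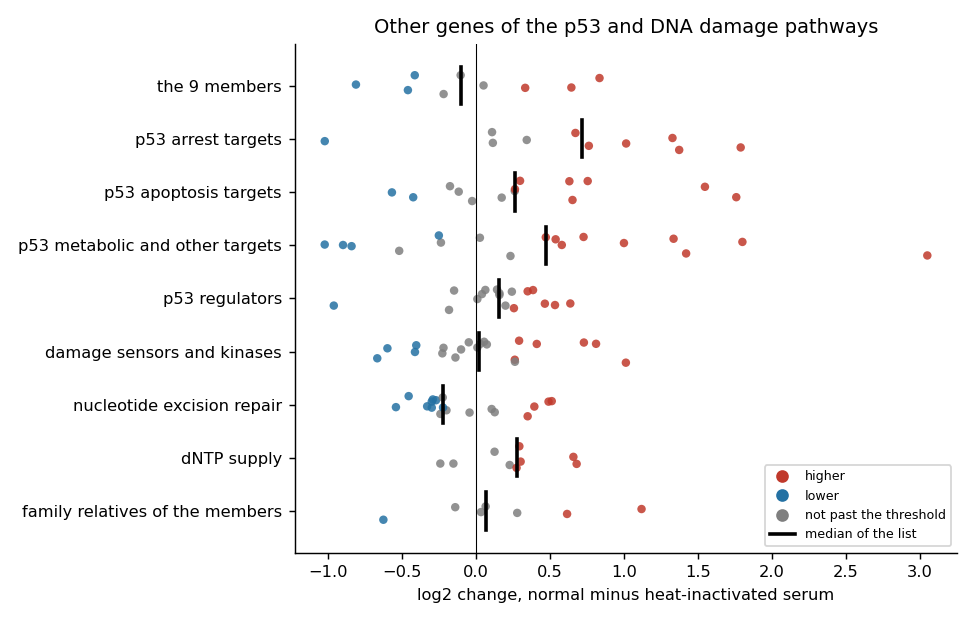
Log2 change (horizontal axis, normal minus heat-inactivated serum, log2(FPKM + 1) scale) of the 9 members and of the tested genes of 8 pathway lists, 1 point per gene, coloured by whether the gene passed the test. Black bars are medians. The arrest targets have the highest median, 0.72, and the nucleotide excision repair genes the lowest, -0.22.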

How the data were processed

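Polyadenylated RNA of 3 normal serum and 3 heat-inactivated serum libraries was sequenced, and the sample titles gave treatment and replicate. The submitters' processing notes list Cuffdiff 2.1.1, Cufflinks 2.1.1 and TopHat2 2.0.7, with a build not given in the sources used here. FPKM values were deposited by the authors for each transcript and library. They also deposited FPKM per treatment, the log2 fold change, and the p-value and q-value of each transcript, per the file headers. Transcripts of one symbol were summed, so the sums do not separate isoforms, and reads from overlapping or near-identical genes may be shared. Genes averaging 1 FPKM or more were tested as log2(FPKM + 1) using limma 3.58.1 (R 4.3.3) under a variance trend and no block, and p-values were adjusted by Benjamini and Hochberg's method. Such log2 changes understate those of low genes, and folds are ratios of mean FPKM.

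Fragments per value were read from the value of 1 fragment in genes with 1 transcript, after taking 189 bases off the length (whole within 0.1). They are estimates, and they cover no error beyond counting. The test was first run on simulated data. The members, the lists and the ratios were chosen with earlier results of these data known. Besides the members, up to 3 called genes with the smallest adjusted p per list and 3 nearest profiles of each of 2 members were named. Others are marked as named after their values were seen. Some genes that this rule names are not reported here, and no sequences were used. The 20 alternatives varied pseudocount, filter, scaling, variance model, transcripts and libraries.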

Additional observations from a re-analysis of the deposited data

How the results depend on the processing

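The number of members called was 6 of 9, and 3 of 4 with a mean of at least 5 FPKM, where only GADD45A, GADD45B, XPC and MDM2 are tested. It lay between 4 and 5 when 1 library was left out, and between 5 and 6 in the other alternatives. Over all tested genes 6381 were called, and between 5455 and 5872 with 1 library left out. GADD45A, GADD45B, XPC and TP53INP1 kept their direction and their call wherever they were tested, RRM2B in 14 and TP53I3 in 8 of 19 alternatives. Of the members not called, MDM2 changed sign with total-FPKM scaling (-0.0691 on the log2 scale), with the same scaling without MIR1282 (-0.13) and without normal serum replicate 3 (-0.0125). SESN1 changed sign with quantile normalization (0.0321) and with only its highest transcript (0.0805). Among other genes named, BCL2L11 changed sign with only its highest transcript (-0.0939). MDM4 did so with the scaling (-0.0901), scaling without MIR1282 (-0.15), without normal serum replicate 3 (-0.0771) and without heat-inactivated serum replicate 3 (-0.117), with values between -0.117 and 0.208 over the libraries left out. SESN2 did so with the scaling (-0.0581) and scaling without MIR1282 (-0.12), and CETN2 with the scaling (-0.0132), scaling without MIR1282 (-0.0852) and quantile normalization (-0.0478). The cause was not tested. Scaling without MIR1282 was added after seeing the data. It left 28.3% of calls higher and the median log2 change of all genes at -0.18.

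The replicate numbers were checked as a pairing. Deviations of same-numbered libraries correlated at 0.19, 0.03 and 0.01 over genes for replicates 1, 2 and 3, and normal serum replicate 2 correlated best with heat-inactivated serum replicate 3 (0.11), so the numbers were not taken as a pairing. The replicate 1 libraries, which also share the low share of whole fragment values, had the highest of the 9 correlations between libraries of different treatments. With a term for them 7063 genes and 6 members were called. With the replicate block 6775 genes and 5 members were called, and the adjusted p of TP53I3 was 0.0508. Depth limits TP53INP1, TP53I3, ZMAT3 and SESN1, which rest on at most 53.05 fragments in any library.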
